A study of Homo sapiens with 7 samples.

Results

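The genes described here encode the proteins by which epithelial cells hold on to one another: the cadherins and their catenins, the desmosomal proteins, the claudins and other tight junction proteins, the nectins, a pair of connexins and the proteins that set apical and basal polarity. They were chosen by name, with earlier results of these data known. A gene counted as a member when the array's own annotation gave its symbol to at least 1 non-control probe. All 48 members had a probe, with 64 probes in all among the 42405 probes and 34809 gene names of the array. The cells were ACHN, an established human renal cell carcinoma line. Retroviral pBabe-hygro constructs, which confer resistance to hygromycin, were used to transduce them, with that drug as the selection, and the sources used here do not say whether a clone or a pool of cells was kept. The 4 EV samples carried the empty vector and the 3 HOTAIR samples carried the cDNA of HOTAIR, a long non-coding RNA transcribed from the HOXC cluster, so that infection and drug selection were common to both groups. Each sample was hybridised to 1 single-colour Agilent SurePrint G3 Human GE array, and the comparison asked which transcripts differ in abundance when HOTAIR is overexpressed.

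Classical cadherins reach across the gap between neighbouring cells and bind each other in the presence of calcium, while their tails hold β-catenin, which is tied to actin through α-catenin. Desmosomal cadherins are coupled to keratin filaments through plakoglobin, plakophilins and desmoplakin, and claudins form the strands of the tight junction, where they seal the space between cells or make it selectively permeable. In the kidney the set of claudins and cadherins differs along the nephron, and a shift from E-cadherin to N-cadherin is one of the textbook signs of epithelial-mesenchymal transition.

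Levels are given as the log2 of a spot's processed intensity minus the 75th percentile of the same array, so a level of 0 is as bright as that percentile and a difference of 1 is a 2-fold change. Levels depend on how well a probe binds its target, so they were compared between arrays for the same probe and never between probes. A probe was called detected in a group when Agilent's software marked it well above background on every array of that group. The HOTAIR probe, at chr12:54356661-54356720 on the minus strand of hg19, checked the labels. Its signal exceeded background on none of the EV arrays and on each of the HOTAIR arrays, with measured means of -6.69 ± 0.39 (SD, n = 4) and -2.98 ± 0.35 (SD, n = 3). Counted from the lowest signals well above background on the EV arrays, its level was 9.32-fold higher in ACHN-HOTAIR cells. That figure is no strict lower limit, since some brighter EV signals were not marked well above background. The probe entered the test through the HOTAIR arrays alone. The limma result belongs to its measured difference of 3.71 (adjusted p = 0.00162) and serves only as a check of the labels.

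The 75th percentile lay at an intensity of 523 to 649 in EV samples and 552 to 640 in HOTAIR samples, and no spot was saturated. Of a list of 8 kidney epithelial and renal carcinoma markers, 7 were detected on all 7 arrays and CA9 was at background, whereas 5 of 5 fibroblast markers and 3 of 4 endothelial markers were at background on every array. PECAM1 was above background on 1 EV array. Of the leukocyte markers, CD14 was detected on all arrays and CD3E was at background on all of them. The array of EV 2 stood apart from the other arrays, with a score of 74.0 on the first principal component (51.8% of the variance) against -18.1 to -8.50 for the other EV arrays, and HOTAIR 3 scored 21.1 against -29.4 and -21.3 for the other HOTAIR arrays. Values that the text ties to either array are therefore also given without 1 or both of them. All arrays shared a slide, but each group filled its own row of it, so that the row of the slide and the vector cannot be told apart.

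The transcripts are read through 60-base probes, and what a value means depends on which piece of the transcript its probe covers. The first 30 bases, 5′ to 3′, are shown for the members on which the results turn, as given by the annotation that the authors' files carry, with the positions of the whole probes on hg19. E-cadherin (CDH1) and N-cadherin (CDH2) are shown because their balance is the usual readout of the epithelial state, and N-cadherin has a pair of probes on chromosome 18. The CDH1 probe lies at chr16:68869214-68869273 on the plus strand, and the CDH2 probes lie on the minus strand at chr18:25530936-25530995 and, nearer the 5′ end of the transcript, at chr18:25532081-25532140.
CDH1: aaatcaaccctgcaatcactttttggaatt
CDH2, brighter probe: taccagaatataaatgatacacctctgacc
CDH2, other probe: atgtatggtggaggtgatgactgaacttca

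The next sequences belong to 4 of the 5 members in which the HOTAIR and EV arrays did not overlap. They are the probes of kidney-specific cadherin (CDH16, chr16:66942042-66942101, minus strand), claudin-2 (CLDN2, chrX:106174032-106174091, plus strand), tricellulin (MARVELD2, chr5:68739750-68739809, plus strand) and the connexin GJB2 (chr13:20761915-20761974, minus strand). The other MARVELD2 probe, to which the annotation gives no genome position, starts at base 1167 of the transcript, and the brighter one starts at base 2298.
CDH16: gggagtgctccaaatgtcagggtgtttgcc
CLDN2: agactatctgtaacagtgccaggcacacag
MARVELD2, brighter probe: ggaccccccaaatggaacaacttcactttc
MARVELD2, other probe: cagctcggagacatagagaatatatggaac
GJB2: attctgttgattaaagatgagctttgtcta

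ACHN cells had a mixed set of junction transcripts. Of the 48 members, 33 (68.8%) were detected in EV and in HOTAIR cells, against 47.9% of all gene names on the array that were tested. The detected members included N-cadherin, CDH4, T-cadherin and CDH16, all 4 catenins, claudins 1, 2, 3, 4, 12 and 16, occludin, ZO-1, all 3 nectins, both connexins and all 3 polarity genes. E-cadherin was not among them. There were 9 members without a signal above background on any array, namely CDH1, CDH6, PKP1, CLDN7, CLDN8, CLDN10, CLDN14, MARVELD3 and TJP3. The other 6 members, CDH3, CDH5, CDH11, DSC2, DSG3 and JAM3, were above background on some arrays only and were not tested. The representing probes of the 33 tested members were well above background on all 7 arrays, so that none of them entered the test through 1 group alone.

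**Figure D1:**
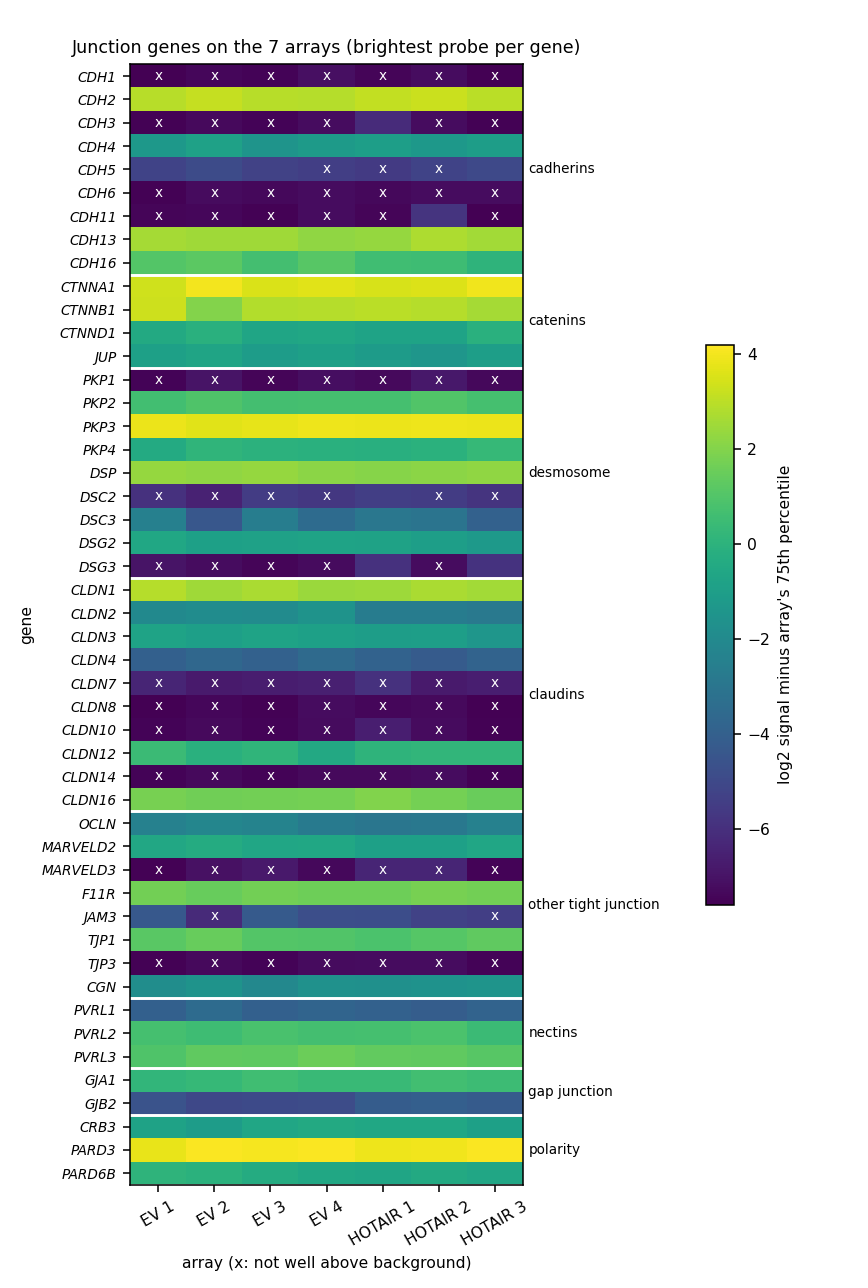
Level of the 48 junction genes on each of the 4 EV and 3 HOTAIR arrays, as log2 intensity relative to the 75th percentile of the array, with the genes grouped by role and crosses where the probe was not well above background. The E-cadherin probe carries a cross on all 7 arrays and the N-cadherin probe on none, and within a gene the colour changes little from EV to HOTAIR.

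No member passed the adjusted p of 0.05 in the limma comparison of HOTAIR with EV, which was adjusted over all 20419 tested probes and called 0.167% of them. At an unadjusted p under 0.05 limma gave 4 members (12.1% of 33), of which 3 were lower and 1 was higher in HOTAIR cells. Over all tested probes this share was 5.85%, made up of 2.29% lower and 3.56% higher. In 5 members (15.2%) the HOTAIR arrays did not overlap with the EV arrays, beside 7.7% of all tested probes. Of these 5, 4 were lower in HOTAIR cells (12.1%, beside 3.5% of all probes) and 1 was higher (3.03%, beside 4.2%). Since the members were chosen with earlier results of these data known, these shares are descriptions only. The median difference of the members, HOTAIR minus EV, was -0.02 on the log2 scale and that of all tested probes was 0.01. By sign alone 18 members were lower and 15 were higher in HOTAIR cells, and 47.2% of all tested probes were lower.

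The intervals say how large a difference could have gone unseen. The 95% confidence interval of the log2 difference on the brightest probe lay between -1 and 1 for 29 of the 33 tested members (87.9%). This share was 87% of all tested probes. Such an interval leaves no room for a 2-fold change in either direction on that probe. The exceptions were CDH16, CLDN2, GJB2 and DSC3. For 15 members (45.5%) the interval of the brightest probe lay between -0.5 and 0.5. Other probes had intervals that passed -1 or 1 in PVRL2 (-1.26 to 1.39), PKP4 (-1.14 to 0.16) and CLDN12 (-1.06 to 0.26). The EV arrays had a median SD of 0.21 over the tested members, close to the 0.23 over all tested probes. It was wider in some members, with 0.90 in DSC3 and 0.53 in CTNNB1 on their brightest probes. With 4 arrays against 3 the exact two-sided permutation test of the means, over 35 splits, can give no p below 0.0286. In the members whose groups did not overlap this p was 0.0286 or 0.0571. The separation itself largely sets it, so it adds no support, and it was not adjusted over the members. The labels do not say that the samples of a group came from separate cultures, so the p-values measure the spread between these samples, which may be technical.

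**Figure D2:**
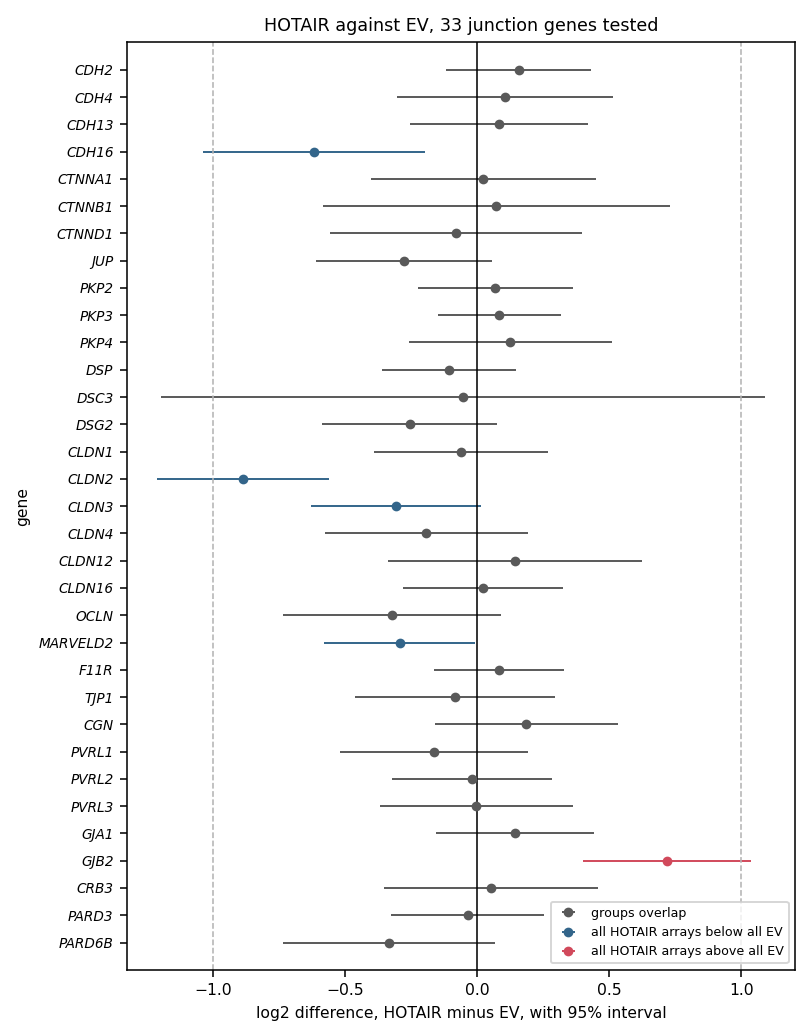
Difference between HOTAIR and EV arrays for the 33 tested junction genes, as points with 95% confidence intervals from limma on the log2 scale, grouped by role. CLDN2 lies farthest to the left at -0.89 and GJB2 farthest to the right at 0.72, and most of the other intervals cross 0 within a 2-fold change.

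The classical cadherins join epithelial cells at the adherens junction. E-cadherin, the cadherin of most epithelia, was at background throughout, and read -7.62, -7.40, -7.48 and -7.11 in EV cells and -7.43, -7.19 and -7.6 in HOTAIR cells. The probe was printed in 10 spots per array, and none of the 7 arrays showed a signal well above background. CDH6, or K-cadherin, which is found in the proximal tubule and in renal carcinomas, was likewise at background with -7.54, -7.27, -7.35 and -7.20 in EV cells and -7.34, -7.21 and -7.22 in HOTAIR cells. A signal at background sets no lower limit on a transcript, so differences between the groups in CDH1 or CDH6 could not be measured.

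N-cadherin, the cadherin of mesenchymal and neural cells that is also made by proximal tubule cells, was bright on every array. The brighter probe read 2.93, 3.14, 2.94 and 2.90 in EV cells and 3.14, 3.28 and 3.00 in HOTAIR cells. The difference of 0.16 (95% interval -0.12 to 0.43) was within the spread between arrays (limma, adjusted p = 0.983), since EV 2 and HOTAIR 1 were equal to 2 decimals and both lay above HOTAIR 3. Without EV 2 and HOTAIR 3 it was 0.28 (0.03 to 0.54, adjusted p = 0.526 by limma). The other N-cadherin probe read 1.34, 1.47, 1.32 and 1.18 in EV cells and 1.24, 1.28 and 1.38 in HOTAIR cells, a difference of -0.03 (-0.28 to 0.23, adjusted p = 0.993 by limma). The probes had opposite signs, and both intervals lay between -0.5 and 0.5.

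Kidney-specific cadherin, CDH16, is a cadherin of the basolateral membrane of tubular epithelium that lacks the tail by which classical cadherins hold catenins. Its probe read 1.02, 1.21, 0.69 and 1.13 on the EV arrays and 0.58, 0.55 and 0.07 on the HOTAIR arrays. All 3 HOTAIR arrays lay below all 4 EV arrays, although HOTAIR 1 and EV 3 were close. The mean was 1.01 ± 0.23 (SD, n = 4) in EV cells and 0.40 ± 0.28 (SD, n = 3) in HOTAIR cells, a 1.53-fold lower level. The log2 difference was -0.62 ± 0.18 (SE), with a 95% interval of -1.04 to -0.20, and did not pass the adjusted p (0.531 by limma, 0.0571 unadjusted by the exact permutation test). Without HOTAIR 3, whose level was the lowest, the difference was -0.45 (-0.87 to -0.04). Without EV 2 and HOTAIR 3 it was -0.39, with an interval that reached 0 (-0.78 to 0.0009). It was -0.32 when limma weighted the arrays by their quality. The groups overlapped without scaling between arrays.

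Of the other cadherins, CDH4 (R-cadherin) and CDH13 (T-cadherin, which has a lipid anchor in place of a tail) were detected on all arrays and differed by 0.11 (-0.30 to 0.52) and 0.08 (-0.26 to 0.42). CDH3, or P-cadherin, was above background on HOTAIR 1 alone at -6.16, with -7.55 to -7.20 on the other arrays. CDH11, a cadherin of mesenchymal cells, was above background on HOTAIR 2 alone at -5.82. VE-cadherin, CDH5, the cadherin of endothelium, was above background on 3 EV arrays and 1 HOTAIR array, and its levels lay between -5.40 and -4.91 in EV cells and between -5.59 and -4.98 in HOTAIR cells. These single arrays above background were not taken as a difference between groups.

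The catenins link cadherin tails to the cytoskeleton, and all 4 were detected on every array. β-catenin, CTNNB1, which also carries the Wnt signal to the nucleus, read 3.28, 2.01, 2.83 and 2.90 in EV cells and 2.97, 2.90 and 2.61 in HOTAIR cells. The EV mean was 2.75 ± 0.53 (SD, n = 4) and the HOTAIR mean was 2.83 ± 0.19 (SD, n = 3), so the difference of 0.07 had a wide interval, from -0.58 to 0.73 (limma, adjusted p = 0.993). Its EV range of more than a 2-fold change was set by EV 2, and without that array the difference was -0.17. The other CTNNB1 probe differed by -0.05 (-0.62 to 0.52).

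p120-catenin, CTNND1, which keeps cadherins at the cell surface, read -0.44, -0.13, -0.67 and -0.58 in EV cells and -0.75, -0.75 and -0.11 in HOTAIR cells. EV 2 and HOTAIR 3 were the highest of their groups, and the difference was -0.08 (-0.56 to 0.40, adjusted p = 0.993 by limma), or -0.19 (-0.47 to 0.10) without both. Plakoglobin, JUP, which serves adherens junctions and desmosomes alike, read -0.91, -0.72, -1.09 and -0.90 in EV cells and -1.13, -1.41 and -1.0 in HOTAIR cells. Its groups overlapped only in HOTAIR 3 and EV 3, and the difference was -0.28 ± 0.14 (SE, 95% interval -0.61 to 0.05, limma, adjusted p = 0.926), or -0.31 without EV 2 and HOTAIR 3. α-Catenin, CTNNA1, the link to actin, differed by 0.02 (-0.40 to 0.45) on its brighter probe and by 0.04 on the other.

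Desmosomes were represented by 9 members, of which 6 were tested. Desmoplakin, DSP, which ties the plaque to keratin filaments, read 2.31, 2.23, 2.35 and 2.15 in EV cells and 2.04, 2.17 and 2.26 in HOTAIR cells. The groups overlapped, and the difference was -0.11 (-0.36 to 0.15, adjusted p = 0.993 by limma) on this probe and -0.16 on the other. The plakophilins, plaque proteins that gather the desmosomal cadherins, had overlapping groups on their brightest probes, with differences of 0.07 (-0.23 to 0.36) for PKP2, 0.08 (-0.15 to 0.32) for PKP3 and 0.13 (-0.26 to 0.51) for PKP4. The other PKP4 probes differed by -0.27 and -0.49, and the last of these is annotated at chr2:210045666-210045725, which is 50.5 Mb from the others. PKP1, a plakophilin of stratified epithelia, was at background with both of its probes, which share 49 of their 60 bases.

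Among the desmosomal cadherins, desmoglein-2 (DSG2), the desmoglein of simple epithelia, differed by -0.26 (-0.59 to 0.08, limma, adjusted p = 0.936). Desmocollin-3 (DSC3) had the widest interval of the tested members on its brighter probe, with -2.46, -4.40, -2.61 and -3.49 in EV cells and -2.92, -3.04 and -3.92 in HOTAIR cells. The difference was -0.05 (-1.20 to 1.09), and EV 2 lay lowest. It was -0.44 (-1.28 to 0.40) without EV 2 and -0.13 (-0.91 to 0.66) without EV 2 and HOTAIR 3. The other DSC3 probe, nearer the 3′ end of the transcript, differed by -0.08 (-0.47 to 0.31). DSG3, a desmoglein of squamous epithelium, was above background on HOTAIR 1 (-5.94) and HOTAIR 3 (-5.85) and on no EV array (-7.44 to -6.99), while HOTAIR 2 was at -7.21. DSC2 was above background on HOTAIR 1 alone.

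The claudins were the group with the lowest median difference of the 8 roles, at -0.13 over the 6 that were tested, of which 4 were lower and 2 were higher by sign. Claudin-2, which forms pores for cations and water in the leaky tight junctions of the proximal tubule, had the largest difference of the members. It read -2.0, -1.88, -1.89 and -1.52 on the EV arrays and -2.65, -2.66 and -2.81 on the HOTAIR arrays. The lowest EV array stood well clear of the highest HOTAIR array, and the arrays of each group lay close together. The mean was -1.82 ± 0.21 (SD, n = 4) in EV cells and -2.71 ± 0.09 (SD, n = 3) in HOTAIR cells, a 1.85-fold lower level. The log2 difference was -0.89 ± 0.14 (SE), with a 95% interval of -1.21 to -0.56. It did not pass the adjusted p over all probes (0.0942 by limma), and the exact permutation p was 0.0286, the smallest the design can give.

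The difference in CLDN2 lay between -0.94 and -0.79 when any of the 7 arrays was left out, with adjusted p from 0.123 to 0.403 by limma. It was -0.85 without EV 2 and HOTAIR 3. With arrays weighted by quality it was -0.80 with an adjusted p of 0.00794 by limma, and with normexp background correction it was -0.60 with an adjusted p of 0.165. Over these and the other alternatives it ranged from -0.95 to -0.60, so that the direction was the same in each of those run while the side of the threshold changed under the array weights.

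Claudin-3, a sealing claudin, read -0.73, -0.96, -0.77 and -0.89 in EV cells and -1.01, -1.0 and -1.41 in HOTAIR cells. All HOTAIR arrays lay below all EV arrays, but HOTAIR 1 and HOTAIR 2 were close to EV 2, and HOTAIR 3 lay well below the rest. The level was 1.24-fold lower, with a difference of -0.31 ± 0.14 (SE, 95% interval -0.63 to 0.01, limma, adjusted p = 0.878), and the exact permutation p was 0.0286. Without HOTAIR 3 the difference was -0.17 (-0.47 to 0.13), and the groups overlapped without scaling between arrays.

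Claudin-1, a sealing claudin of many epithelia, read 2.88, 2.54, 2.71 and 2.43 in EV cells and 2.46, 2.72 and 2.54 in HOTAIR cells. The groups overlapped over most of their range, and the difference was -0.06 (-0.39 to 0.27, limma, adjusted p = 0.993). Claudin-16, which takes part in magnesium reabsorption in the thick ascending limb, was detected on all arrays with 1.66 to 1.78 in EV cells and 1.52 to 1.98 in HOTAIR cells, a difference of 0.02 (-0.28 to 0.32). CLDN4 differed by -0.19 (-0.58 to 0.19). CLDN12 differed by 0.14 (-0.34 to 0.62) on its brighter probe and by -0.40 (-1.06 to 0.26) on the other, which was above background on 1 of 3 HOTAIR arrays. CLDN7 and CLDN8, claudins of the distal nephron, and CLDN10 and CLDN14 were at background on all 7 arrays.

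**Figure D3:**
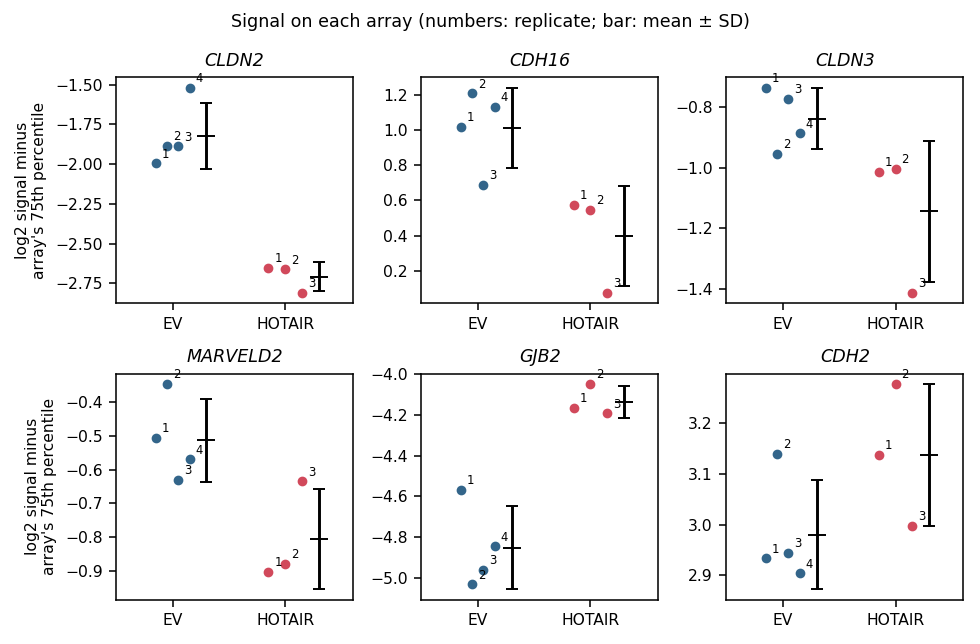
Level on each array, as log2 intensity relative to the 75th percentile, of the 5 junction genes whose groups did not overlap and of CDH2, with bars for the group means. In CLDN2, CDH16, CLDN3 and MARVELD2 the 3 HOTAIR points lie below the 4 EV points, in GJB2 they lie above them, and in CDH2 the groups overlap.

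The tight junction also holds the membrane proteins occludin and tricellulin, adhesion molecules of the JAM family and the scaffolds beneath them. Tricellulin, MARVELD2, seals the corners where 3 cells meet. Its brighter probe read -0.51, -0.35, -0.63 and -0.57 in EV cells and -0.90, -0.88 and -0.63 in HOTAIR cells. All HOTAIR arrays lay below all EV arrays, but HOTAIR 3 and EV 3 were equal to 2 decimals. The level was 1.23-fold lower, with a difference of -0.29 ± 0.12 (SE, 95% interval -0.58 to -0.01), a limma adjusted p of 0.836 and an exact permutation p of 0.0286, and without HOTAIR 3 it was -0.38. The groups overlapped under quantile normalization, median scaling, normexp and the unscaled table. The other MARVELD2 probe read -3.53, -3.84, -3.62 and -3.78 in EV cells and -3.60, -3.45 and -3.63 in HOTAIR cells, a difference of the opposite sign (0.13, 95% interval -0.15 to 0.41). The transcript annotated to the brighter probe was not found among RefSeq's genes, whereas that of the other probe was found as MARVELD2.

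Occludin, OCLN, read -2.43, -2.20, -2.34 and -2.73 in EV cells and -2.96, -2.86 and -2.43 in HOTAIR cells. HOTAIR 3 lay within the EV range and the other HOTAIR arrays lay below it, and the difference was -0.32 (-0.74 to 0.09, limma, adjusted p = 0.932). Without EV 2 and HOTAIR 3 it was -0.41 (-0.77 to -0.04, limma, adjusted p = 0.522). The other OCLN probe gave -0.38 (-0.83 to 0.06, limma, adjusted p = 0.924). The brighter OCLN probe is annotated at chr5:70369976-70370035 on the minus strand, and the other has no genome position. Only the chromosome of the brighter probe was compared with RefSeq, so its place and strand within chromosome 5 were not checked. ZO-1, TJP1, the scaffold that ties claudins and occludin to actin, read 1.20, 1.46, 1.03 and 1.00 in EV cells and 0.87, 1.07 and 1.32 in HOTAIR cells. Its groups overlapped, with a difference of -0.08 (-0.46 to 0.29, limma, adjusted p = 0.993), and EV 2 and HOTAIR 3 were again the highest of their groups. Without both it was -0.10 (-0.41 to 0.20).

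Cingulin (CGN), a scaffold at the cytoplasmic face, differed by 0.19 (-0.16 to 0.53). JAM-A (F11R), an adhesion molecule of the tight junction, differed by 0.08 (-0.16 to 0.33) on its brighter probe and by 0.27 on the other. JAM-C (JAM3) was above background on 3 EV and 2 HOTAIR arrays and was not tested over all 7. Its levels were -4.35, -6.20, -4.24 and -4.78 in EV cells and -4.81, -5.28 and -5.39 in HOTAIR cells, and EV 2 lay below every other array. Without EV 2 the probe passed the background filter, through the EV arrays alone, the group in which it was then the higher, and its difference of -0.70 (limma, adjusted p = 0.445) is given as a description for that reason. Without HOTAIR 3 and with EV 2 kept, the difference was -0.15.

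Nectins start cell contacts before cadherins gather, and the annotation lists them under their older symbols PVRL1, PVRL2 and PVRL3. They differed by -0.16 (-0.52 to 0.19), -0.02 (-0.32 to 0.28) and 0.00 (-0.37 to 0.36). The brighter PVRL2 probe is annotated at chr3:111288738-111288797 on the minus strand, although RefSeq places the gene on chromosome 19. The other lies at chr19:45377626-45377685 on the plus strand, and both are shown because their annotated positions lie on different chromosomes.
PVRL2, brighter probe: tactgttaacctggaagactactgaatcat
PVRL2, chromosome 19 probe: ctcccagctggtcatccacgcagtggacag
The chromosome 19 probe read -1.93, -4.24, -2.03 and -2.30 in EV cells and -2.29, -2.23 and -3.15 in HOTAIR cells. EV 2 stood far below the other EV arrays, and HOTAIR 3 was the lowest of its group. The interval of its difference of 0.07 therefore ran from -1.26 to 1.39, which leaves room for a 2-fold change in either direction. It was -0.47 (-1.08 to 0.14) without EV 2 and -0.18 (-0.53 to 0.18) without EV 2 and HOTAIR 3.

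Connexins form the channels of gap junctions, and both members were detected on all arrays. GJB2, a connexin of many epithelia, was the member with the largest positive difference. It read -4.57, -5.03, -4.96 and -4.85 on the EV arrays and -4.17, -4.05 and -4.19 on the HOTAIR arrays. All HOTAIR arrays lay above all EV arrays, and the 3 HOTAIR values lay close together. The mean was -4.85 ± 0.20 (SD, n = 4) in EV cells and -4.14 ± 0.08 (SD, n = 3) in HOTAIR cells, a 1.64-fold higher level. The log2 difference was 0.72 ± 0.14 (SE), with a 95% interval of 0.40 to 1.04. It did not pass the adjusted p (0.162 by limma), and the exact permutation p was 0.0286.

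The GJB2 signal was dim, and its size depended on the background correction. With normexp the difference was 0.18 (limma, adjusted p = 0.914), whereas with arrays weighted by quality it was 0.78 (limma, adjusted p = 0.0155). Leaving out any of the 7 arrays gave 0.66 to 0.81, with adjusted p from 0.171 to 0.656. GJA1, the most widespread connexin, read 0.18, 0.30, 0.56 and 0.39 in EV cells and 0.38, 0.62 and 0.49 in HOTAIR cells. Its groups overlapped, and the difference was 0.14 (-0.16 to 0.44, limma, adjusted p = 0.993).

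**Figure D4:**
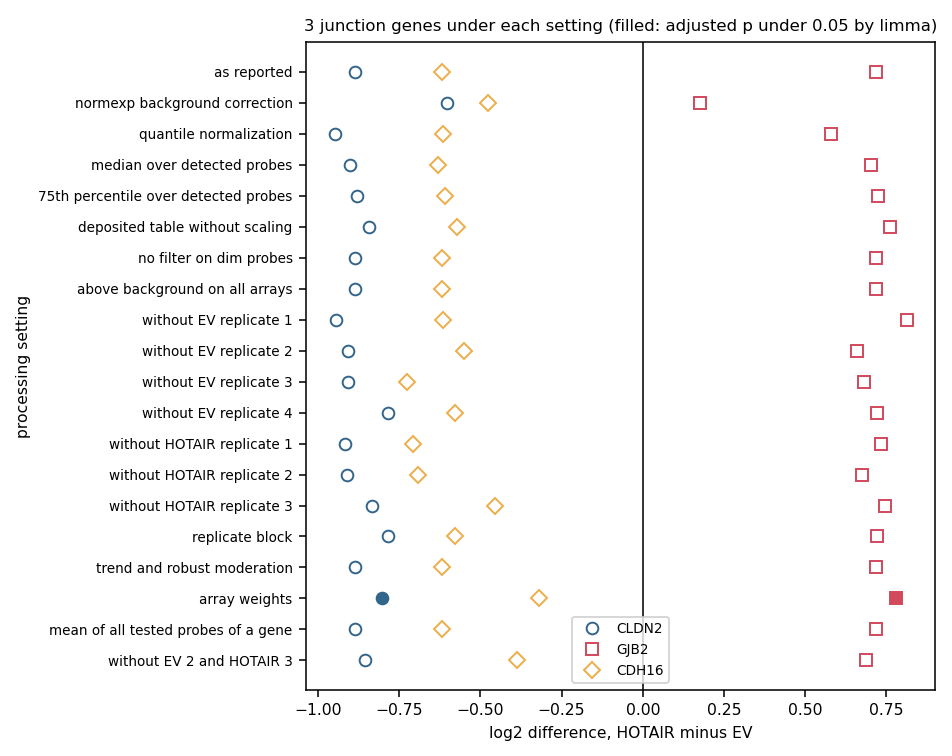
Log2 difference of HOTAIR minus EV for CLDN2, GJB2 and CDH16 under the main analysis and each alternative, with filled points where the adjusted p was under 0.05. CLDN2 and CDH16 stay below 0 and GJB2 stays above 0 in every setting shown, and the points are filled for CLDN2 and GJB2 under array weights.

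The polarity proteins place the tight junction at the border of the apical membrane. PAR-3, PARD3, a scaffold of the PAR complex, read 3.82, 4.15, 4.03 and 4.12 in EV cells and 3.89, 3.96 and 4.13 in HOTAIR cells. The groups overlapped, with a difference of -0.04 (-0.33 to 0.25, limma, adjusted p = 0.993) on this probe and 0.04 on the other. PAR-6β, PARD6B, its partner, lay between -0.59 and 0.07 in EV cells and between -0.64 and -0.44 in HOTAIR cells, with a difference of -0.33 (-0.73 to 0.07, limma, adjusted p = 0.926). CRB3, the Crumbs protein of epithelia, differed by 0.05 (-0.35 to 0.46).

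Probes of the same gene allow a check that is independent of the choice of the brightest. Of the 13 members with more than 1 tested probe, 5 had the same sign on all their probes. The gaps between the differences ranged from 0.02 to 0.61 with a median of 0.12, were under 0.5 in 11 members, and were largest in PKP4 (0.61) and CLDN12 (0.54). The 95% intervals of the probes overlapped in all 13. Of the 5 members with separated groups only MARVELD2 had a further probe, and that probe had the opposite sign.

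**Figure D5:**
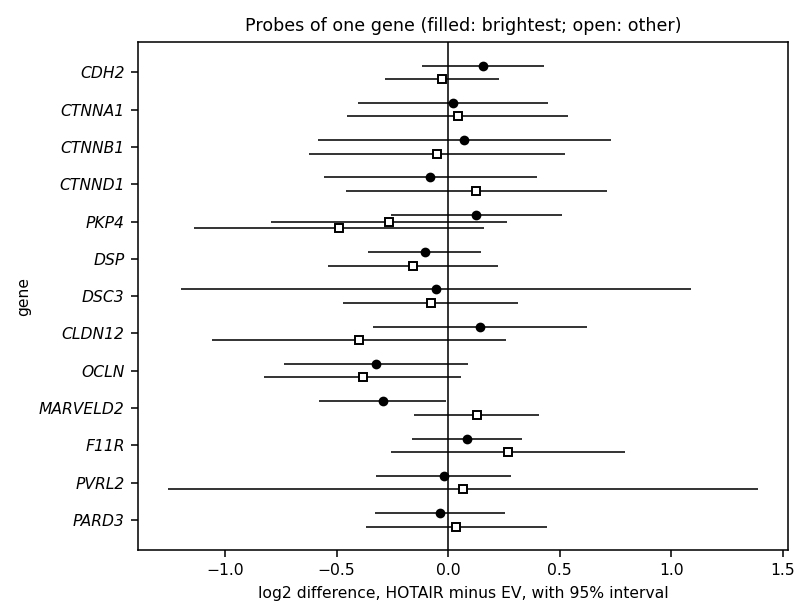
Log2 difference of HOTAIR minus EV for every tested probe of the 13 junction genes with more than 1 tested probe, with 95% confidence intervals and the brightest probe of each gene marked. The intervals of a gene's probes overlap throughout. The points of CDH2, CTNNB1, CTNND1, PKP4, CLDN12, MARVELD2, PVRL2 and PARD3 lie on both sides of 0, with the widest gaps in PKP4 and CLDN12.

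A list of 69 other junction genes was set beside the members, with the remaining cadherins, catenins, plakins, claudins, connexins and polarity proteins that the members leave out. Of these, 33 were tested and 0 passed the adjusted p in limma, which called 0.167% of all tested probes. An unadjusted p under 0.05 in limma was found in 1 of them (3.03%), beside 5.85% of all tested probes. By sign 13 were higher and 20 were lower in HOTAIR cells, with a median difference of -0.05, and 47.2% of all tested probes were lower. The groups did not overlap in 2 of the 33, beside 7.7% of all tested probes. The gene with an unadjusted p under 0.05 was JAM2, which encodes JAM-B, the partner that JAM-C binds on neighbouring cells. It read -4.94, -4.54, -4.99 and -4.43 on the EV arrays and -3.61, -3.48 and -4.12 on the HOTAIR arrays, and it was above background on 3 of 4 EV arrays and all HOTAIR arrays. The groups did not overlap, with HOTAIR cells higher, and the difference was 0.99 ± 0.21 (SE, 95% interval 0.50 to 1.48, limma, adjusted p = 0.224). This probe was tested because it passed the background filter in HOTAIR cells alone, the group in which it was higher. Its p-values are therefore given as a description. The other JAM2 probes were above background on none of the EV arrays and were not tested. The difference of the tested probe was 0.22 with normexp (limma, adjusted p = 0.921), and 1.33 with array weights (adjusted p = 0.00557). EPCAM, which encodes an adhesion molecule of epithelial cells, was named after its values were seen, as the other gene of this list whose groups did not overlap among the tested probes that represent a gene, with a difference of -0.23 (-0.47 to 0.01, limma, adjusted p = 0.881). DLG1, a scaffold of the basolateral membrane, was also chosen after its values were seen, and differed by 0.14 on the probe that represents it, while another of its probes differed by -0.40 (limma, unadjusted p = 0.00498, adjusted p = 0.391).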

How the data were processed

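Agilent SurePrint G3 Human GE arrays of 4 EV and 3 HOTAIR samples of ACHN cells, 1 array per sample, were analysed, and groups and numbers were read from the sample labels. Per the file headers, the arrays were read with Agilent's Feature Extraction (version 10.7.3.1), and in the files the authors deposited each spot has a processed intensity (background subtracted and detrended by the software), a mean and background intensity and quality calls. A deposited table of processed intensities lay within 0.498% of the scanner values in all 440783 cells, so it was linear and not scaled between arrays.

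Processed intensities were put on the log2 scale and the 75th percentile of the 58717 spots that are no controls was subtracted within each array. Spots that the software marked as outliers (408 to 600 per array) were left out, and spots of a probe were averaged. Probes well above background in at least 0.5 of their spots throughout EV or throughout HOTAIR entered the test, 20419 in all. HOTAIR was compared with EV by limma 3.58.1 (lmFit and eBayes) in R 4.3.3, with files read by data.table (1.17.8) and with p-values adjusted after Benjamini and Hochberg over the whole set of probes (threshold 0.05), and single genes by a two-sided exact permutation test of the means. With replicates of 4 and 3 the smallest exact Mann-Whitney p is 0.0571. The rank product named in the methods was not run, because its null permutes values over genes. The script was tested on simulated data. The brightest tested probe (highest mean over all arrays) represents a gene. The few arrays limit the precision.

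The members and the lists of other junction genes and markers were chosen with earlier results of these data known. Values on every array are given for members past the adjusted p, for those whose groups did not overlap and for CDH1, CDH2, CDH6, CDH16, CTNNB1, CTNND1, DSP, JUP, CLDN1, CLDN2, OCLN, TJP1, GJA1 and PARD3, and genes of the other list are named at an unadjusted p under 0.05 on the probe that represents them. EPCAM, DLG1, DSC3, JAM3, the chromosome 19 probe of PVRL2 and the members above background on some arrays only were added after their values were seen. Probe positions are those of the array annotation on hg19. Accessions of 62 of the 64 member probes, of 47 members, were found in RefSeq's genes of GRCh38.p14, where 3 members have another current symbol (NECTIN1, NECTIN2 and NECTIN3). A leukocyte and an endothelial list served with the fibroblast list as checks for other cells. Alternatives tried were background correction by normexp with an offset of 50, quantile normalization, the median or the 75th percentile of detected probes as the scale, the deposited table without scaling, no filter, a filter on all arrays, each array left out, the replicate number as a block, trend and robust moderation, array weights, the mean of a gene's probes and, chosen after seeing the data, leaving out EV 2 and HOTAIR 3. A marker and a probe sequence are not reported here.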

Additional observations from a re-analysis of the deposited data

How the results depend on the processing

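The number of members past the adjusted p was 0 under every alternative run but array weights (2 to 6 members at an unadjusted p under 0.05 in limma). With array weights limma called 324 of 20419 probes in place of 34, and 2 of 33 members (CLDN2 and GJB2). It also called 1 other junction gene, JAM2, which passed the background filter through HOTAIR cells alone. With these weights 9 of the 33 members had an unadjusted p under 0.05. For the alternatives the share of all probes at that p is not given, so the member counts at that p are descriptions only. The weights were 0.199 for EV 2 and 0.485 for HOTAIR 3 and up to 3.45 for the other arrays. Of all probes, limma called 9 to 30 with an array left out, 12 with normexp, 14 without a filter, 22 with the filter on all arrays and 20 with trend and robust moderation. Deviations from the group mean correlated at 0.39, -0.37 and -0.41 between samples of the same number. With EV 2 and HOTAIR 3 apart from their groups, these values cannot decide whether the numbers pair the samples. With the replicate block limma called 0 of 20419 probes, 4 members had an unadjusted p under 0.05, and the HOTAIR probe differed by 3.59 (adjusted p = 0.0772).

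Members whose groups did not overlap numbered 2 in the deposited table without scaling (5.01% of all probes), 5 to 8 with an array left out (9.96% to 21.2% of all probes), and 11 of 34 without EV 2 and HOTAIR 3, where the share over all probes was 28.4%. Genes with differences near 0 turned their sign. PARD3 was 0.071 with normexp, 0.0063 in the unscaled table and 0.00053 as a mean of probes, CTNNB1 was -0.012 with array weights and -0.065 without EV 2 and HOTAIR 3, and CTNND1 was 0.023 as a mean of probes. With an array left out the ranges were -0.17 to 0.25 for CTNNB1, -0.29 to 0.027 for CTNND1, -0.13 to 0.019 for CLDN1, -0.20 to 0.025 for TJP1 and -0.11 to 0.015 for PARD3. The cause was not tested. The HOTAIR probe has no value under the filter on all arrays, which it did not pass. For the 15 members not detected on all arrays of a group, signal over background limits what can be said.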
